A study of Homo sapiens with 4 samples.

Results

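The genes described here are the NRF2 pathway with its antioxidant targets and the aldo-keto reductases. They were taken by name, 36 genes of the 28277 in the deposited count table, and all 36 had a row. Expression was measured by RNA sequencing in NCI-H520, an established human lung squamous cell carcinoma line whose genotype is labelled WT. Cells in 2 Vehicle libraries received ultrapure water, and cells in 2 Hx1R8 libraries received 10 µM Hx1R8, each for 12 h, in RPMI-1640 with 15% fetal bovine serum. The series concerns SOX2 self-association, condensates and drug resistance, and the labels do not describe the make-up of Hx1R8. All samples come from 1 cell line, so nothing here extends to other lines.

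NRF2, encoded by NFE2L2, is a transcription factor that is normally held by KEAP1 and passed to a CUL3 ubiquitin ligase for destruction. Electrophiles and oxidants modify cysteines of KEAP1, NRF2 then accumulates, pairs with a small MAF protein and binds antioxidant response elements near genes of glutathione and thioredoxin metabolism, NADPH supply and drug detoxification. Lung squamous cancers often carry an activated pathway, which is known for its part in resistance to chemotherapy. Control of NRF2 is largely at the level of the protein, so its targets are the usual transcript readout.

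The core letters of the antioxidant response element, TGACNNNGC on either strand, were looked up in RefSeq promoter windows of GRCh38.p14 that run from 250 bases before to 50 bases after a gene start. A window was found for 30 of the 36 genes. The letters occurred in at least 1 window of 13 of these 30 genes (43.3%), and in 16.1% of all 27305 genes with a window. The narrower form TGACTNAGC occurred in 5 of the 30 (16.7%), against 1.39% of all genes. The AP-1 letters TGANTCA, which overlap TGACTNAGC where its sixth base is C, occurred in 3 of the 30 genes (10%) and in 9.37% of all genes. A match is a description of letters and not of binding. The genes were listed by name as NRF2 pathway and antioxidant genes, so the shares are no separate evidence about them. Genes with more windows have more room for a match (35116 windows for the 27305 genes), and the shares were not tested. The 5 matches to TGACTNAGC are shown because they hold the narrower form of the element. Each is printed as 31 bases upstream of the start on the strand that carries the match, with the match in capitals.
GCLM, chr1:93909445-93909475, plus strand: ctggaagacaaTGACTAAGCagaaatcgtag
GPX2, chr14:64942848-64942878, plus strand: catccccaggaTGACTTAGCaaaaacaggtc
ME1, chr6:83431169-83431199, minus strand: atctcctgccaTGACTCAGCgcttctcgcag
GSTP1, chr11:67583735-67583765, plus strand: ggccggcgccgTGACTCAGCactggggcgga
KEAP1, chr19:10502783-10502813, plus strand: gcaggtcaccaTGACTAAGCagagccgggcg
The matches lie 34, 122, 137, 66 and 31 bases before the start, in the order printed, and that of KEAP1 belongs to the second of its listed starts. The matches of ME1 and GSTP1 also hold TGANTCA. The windows of NFE2L2, NQO1, SRXN1, AKR1C1, AKR1C2 and AKR1C3 held no match to TGACNNNGC, which says only that these letters are not in these stretches.

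Total counts were 17259403 to 20920857 per library, and 14482 genes passed the filter on low counts and were tested, among them 35 of the 36 genes. Across all tested genes 2 were higher and 1 was lower after Hx1R8 at an adjusted p of 0.05. Vehicle replicate 2 stood furthest from the other libraries, with a chi-square per gene of 2.28 to 2.94 against them, compared with 1.48 to 1.80 among the other 3. Of 8 squamous markers SOX2 was the most abundant (528 CPM in Vehicle), 4 were below 1 CPM in all libraries, and KRT14 and DSG3, among these 4, were at 0. The 5 epithelial markers summed to 1751 to 1806 CPM in Vehicle and 1751 to 1766 CPM in Hx1R8. Below 1 CPM in all libraries were 5 of 6 fibroblast, 3 of 4 endothelial and 4 of 6 immune markers, with PECAM1, PTPRC and CD3E at 0 and COL1A1 the most abundant at 8.19 CPM in Vehicle. Their sums were 8.69 to 8.79, 2.69 to 2.72 and 3.01 to 3.49 CPM in Vehicle and 8.25 to 8.83, 1.80 to 2.00 and 2.38 to 2.86 CPM in Hx1R8, and their part in the results was not tested. The labels do not say whether replicates came from separate cultures, so the spread between libraries behind the p-values may be technical. For each gene, edgeR also drew mostly on a spread estimated across genes (36.9 prior against 2 residual degrees of freedom). Its p-values and intervals therefore reflect only in part that gene's own spread between these libraries. Fewer cells with a transcript cannot be told apart from less of it per cell.

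Many but not all of these genes were abundant in the Vehicle libraries, and none passed the test after Hx1R8. With edgeR's quasi-likelihood test, 0 of 35 tested genes were higher at an adjusted p of 0.05 and 0 were lower, where 0.0138% and 0.00691% of all tested genes were called higher and lower. DESeq2 and limma-voom also called 0. At an unadjusted p under 0.05 edgeR gave 0 genes higher and 1 lower (CES1), beside 1.59% and 1.8% of all tested genes, DESeq2 gave 0 and limma-voom gave 2 (CES1 and PRDX1). Without Vehicle replicate 1 a single gene, PRDX1, was called higher, and without each other library 0 were called.

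The 36 genes together took 1.12% and 1.09% of all reads in Vehicle replicates 1 and 2, and 1.12% in each Hx1R8 library. The median log2 fold change of the 35 tested genes was -0.01, with 24 below 0 and 11 above, beside a median of -0.0018 and 51.1% below 0 over all tested genes. Values ran from -0.31 (AKR1B10) to 0.20 (MAFF). For 31 of the 35, the 95% interval of the fold lay within 1.2-fold of no change, as it did for 57.5% of all tested genes. The comparison between the genes and the whole table depends on level, since 29 of the 35 were above 32 CPM in Vehicle and all 29 were bounded that closely, as were 98.3% of all tested genes above 32 CPM. The 4 genes bounded less closely were MAFF, CBR3, AKR1B10 and CES1. DESeq2 gave larger standard errors (SE) than edgeR for all of the 35 but AKR1C1, AKR1C2 and TXNRD1. Its SE was 0.17 for GCLM, 0.10 for PRDX1, 0.10 for UGDH, 0.19 for GSTA4 and 0.15 for GSTM3. The edgeR values were 0.07, 0.05, 0.06, 0.11 and 0.09 in the same order. Intervals from DESeq2 were not counted, so the 31 genes are those of edgeR alone. For 28 of the 35 genes the Vehicle libraries differed from each other by more than the estimated change after Hx1R8. The same held for 67.8% of all tested genes. A difference between 2 single libraries tends to exceed one between groups of 2 even without a change, so these shares do not compare like measures.

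**Figure D1:**
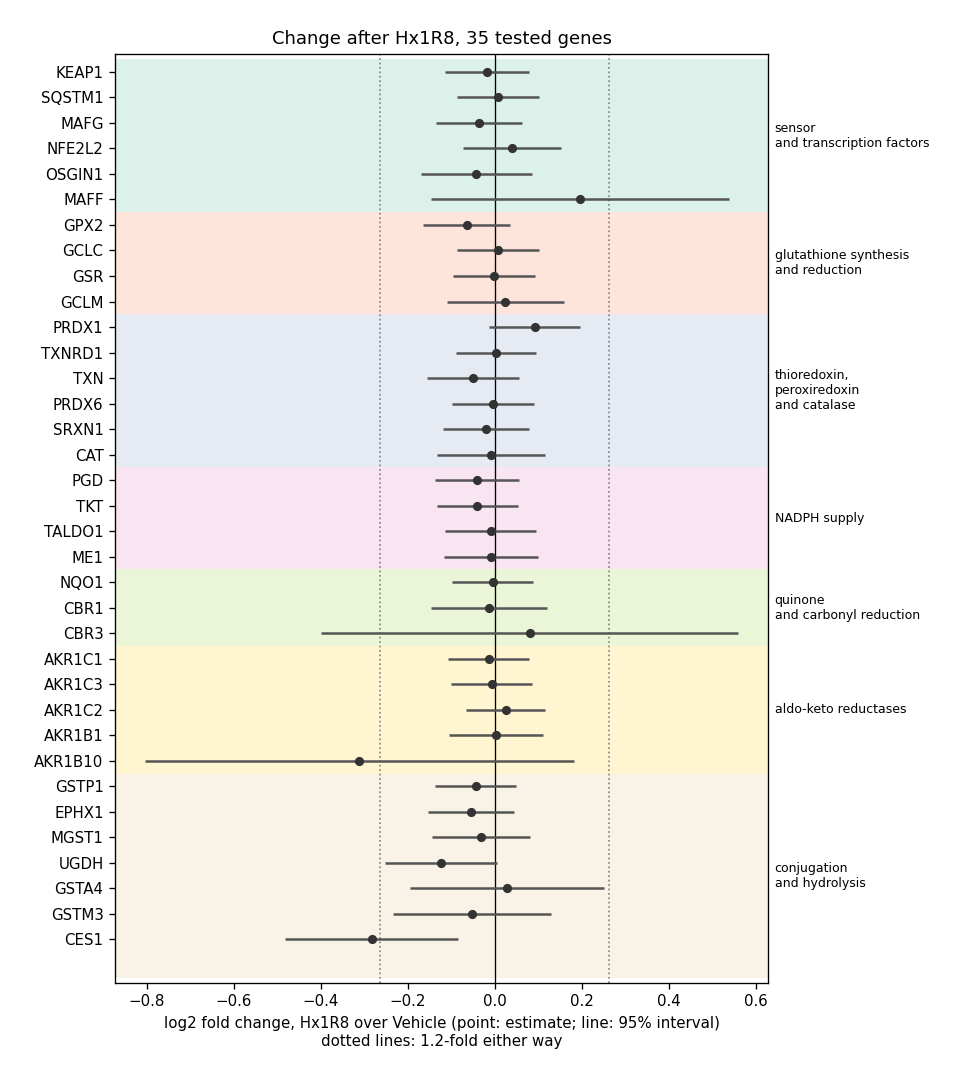
Log2 fold change of the 35 tested genes, Hx1R8 over Vehicle, as edgeR estimate (point) and 95% interval (line), grouped by role, with dotted lines at 1.2-fold. Intervals of 31 genes lie between the dotted lines, and those of MAFF, CBR3, AKR1B10 and CES1 reach beyond them.

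Levels are compared between genes as CPM, counts scaled to the library total, divided by the listed exon length in kilobases (CPM per kb), and within a gene as CPM. Per kb in Vehicle, 20 of the 35 genes stood in the top 10% of the 14482 tested genes and 12 in the top 2%, while 5 were below the median of all tested genes. CES1, among these 5, and SQSTM1 have listed exons on 2 sequences each. Their listed lengths of 3887 and 6524 bases count both sequences, which lowers their CPM per kb. PRDX1 was the most abundant of the group at 2152 ± 224 CPM per kb in Vehicle (SD, n = 2), which gave it rank 4 among all tested genes. GSTP1 followed at 664 ± 24.8 CPM per kb, and neither overlapped its neighbours in the order. GPX2, TXNRD1, TXN, AKR1C1, AKR1C3 and AKR1C2 came next, between 184 and 213 CPM per kb. In this run GPX2 overlapped TXNRD1, and TXN, AKR1C1 and AKR1C3 overlapped one another in their order, so these neighbours did not differ beyond the spread of the Vehicle libraries. NQO1, PRDX6, PGD and TKT followed at 157 to 162 CPM per kb, again each overlapping the next. At the other end CBR3, MAFF and AKR1B10 lay between 1.55 and 2.16 CPM per kb and overlapped in order.

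**Figure D2:**
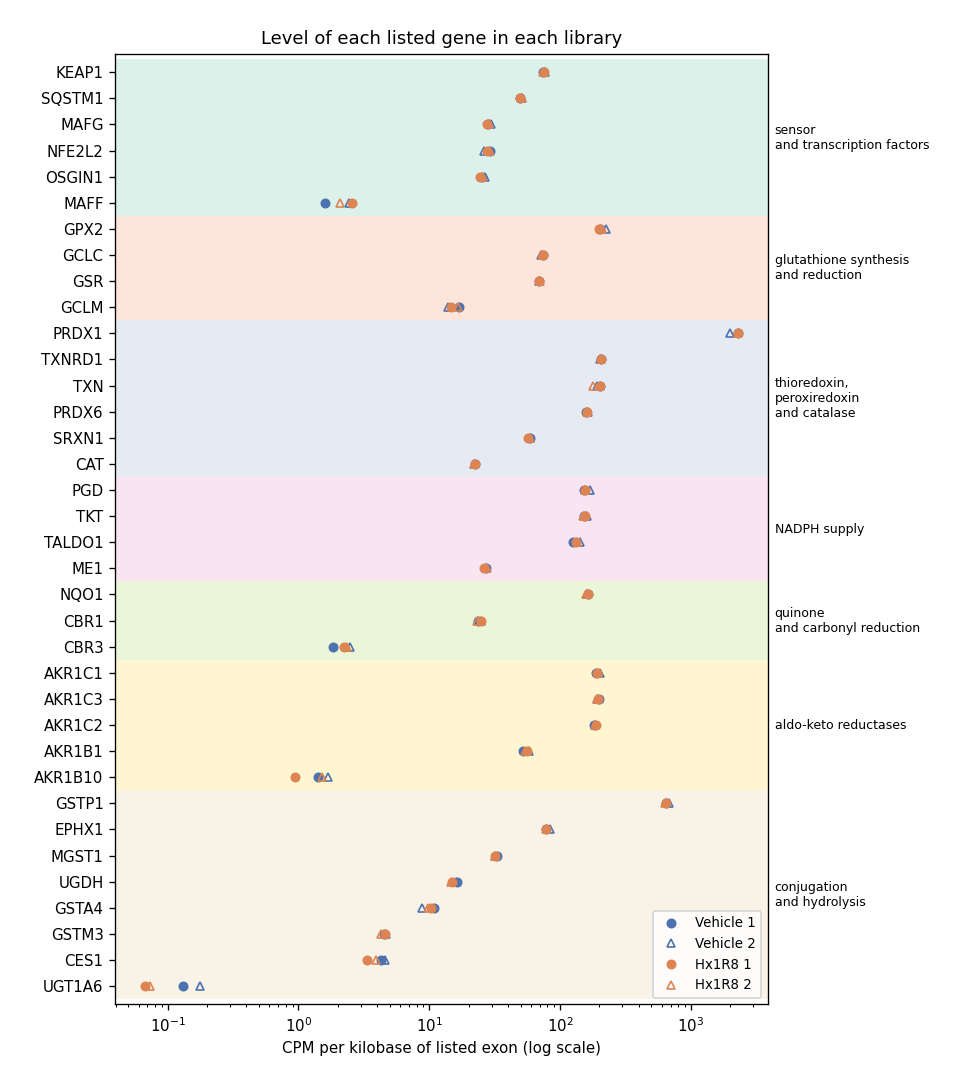
Level of each of the 36 genes in each library, as CPM per kilobase of listed exon on a log scale, grouped by role and ordered within a role by the Vehicle mean. The 4 libraries of most genes lie on top of one another, PRDX1 is at the far right with Vehicle replicate 2 lowest, and AKR1B10, MAFF, CBR3 and UGT1A6 are at the left.

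The regulators of the pathway were all expressed, and none differed detectably between the groups. NFE2L2, the gene of NRF2 itself (chromosome 2, 177230303 to 177265131), was at 103.9 and 93.4 CPM in Vehicle and at 98.5 and 104.0 CPM in Hx1R8. The groups overlapped, with the lowest and the second highest library both in Vehicle. Its log2 fold change was 0.04 (SE 0.06, adjusted p = 0.9999 with edgeR), with a 95% interval of the fold from 0.951 to 1.11. KEAP1, the repressor and sensor (chromosome 19, 10486125 to 10503356), was at 196.4 and 203.3 CPM in Vehicle and at 199.0 and 195.7 CPM in Hx1R8. Vehicle replicate 2 was the highest and Hx1R8 replicate 2 the lowest, with the other libraries between them, and the log2 fold change was -0.02 (SE 0.05), with the fold bounded between 0.924 and 1.06.

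Among the partners of NRF2, MAFG, a small MAF protein, averaged 149.6 ± 4.53 CPM over the Vehicle libraries and 145.8 ± 3.56 CPM over the Hx1R8 libraries (SD, n = 2 each). MAFF, another small MAF, was scarce at 4.06 and 6.13 CPM in Vehicle and 6.51 and 5.25 CPM in Hx1R8. Its Vehicle libraries enclosed Hx1R8 replicate 2, and its log2 fold change of 0.20 (SE 0.17) had a fold interval from 0.903 to 1.45. With Vehicle replicate 2 left out the value was 0.52, and with Vehicle replicate 1 left out it was -0.07, so its direction rested on which control was kept. SQSTM1 encodes p62, which binds KEAP1 and draws it into autophagy, and it averaged 327 ± 7.70 CPM over the Vehicle libraries and 329 ± 9.18 CPM over the Hx1R8 libraries (SD, n = 2 each), with 78.1% of its exon bases shared with no gene and the rest with MRNIP or MGAT4B. OSGIN1, an oxidative stress-induced growth inhibitor, had a log2 fold change of -0.04 (SE 0.06).

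With edgeR, the fold intervals of both subunits of the first enzyme of glutathione synthesis lay within 1.2-fold of no change. GCLC, the catalytic subunit of glutamate-cysteine ligase, was at 281 and 270 CPM in Vehicle and 279 and 274 CPM in Hx1R8, with a log2 fold change of 0.0069 (SE 0.05). GCLM, the modifier subunit and a widely used NRF2 target, was at 86.0 and 70.5 CPM in Vehicle and at 74.5 and 84.1 CPM in Hx1R8. The Vehicle libraries enclosed both Hx1R8 libraries, and they differed from each other 1.22-fold, against an estimated change of 1.02-fold (log2 0.02, SE 0.07). DESeq2 gave GCLM the same log2 value of 0.02 with a wider SE of 0.17, so the closer bound is that of edgeR alone. Of the reads on GCLM and GCLC together, GCLM took 23.4% (95% Wilson interval 22.4 to 24.5) and 20.7% (19.7 to 21.8) in Vehicle replicates 1 and 2, and 21.1% (20.0 to 22.1) and 23.5% (22.5 to 24.4) in Hx1R8 replicates 1 and 2. The interval of each library was apart from that of its own replicate and overlapped that of a library in the other group. These intervals cover counting error only.

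GSR, which returns oxidised glutathione to its reduced form, had a log2 fold change of -0.0020 (SE 0.05) and 222 CPM in Vehicle and in Hx1R8. GPX2, a glutathione peroxidase of epithelia, was among the 6 genes of smallest unadjusted p (0.199). It was at 272 and 299 CPM in Vehicle and at 265 and 281 CPM in Hx1R8, so Hx1R8 replicate 2 lay between the Vehicle libraries. Its log2 fold change was -0.06 (SE 0.05, fold interval 0.892 to 1.03).

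The thioredoxin branch held the most abundant gene of the group, PRDX1, in which 1 library stood apart. PRDX1, a peroxiredoxin that reduces hydrogen peroxide (chromosome 1, 45511035 to 45522890), was at 3114 and 2687 CPM in Vehicle and at 3107 and 3074 CPM in Hx1R8. A single library, Vehicle replicate 2, lay apart below the other 3, which lay close together. The log2 fold change was 0.09 (SE 0.05, unadjusted p = 0.085, adjusted p = 0.9999 with edgeR). Without Vehicle replicate 1, which leaves the low library as the only control, it was 0.20 and passed the threshold (adjusted p = 3.5e-12). Without Vehicle replicate 2 it was -0.0094 (adjusted p = 0.988), within a range of 3.5e-12 to 0.99999 over its alternatives. Of the exon bases of PRDX1, 71.8% are its own and the rest are shared with MMACHC.

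TXNRD1, the cytosolic thioredoxin reductase, was steadier at 884 and 857 CPM in Vehicle and 873 and 871 CPM in Hx1R8. Both Hx1R8 libraries lay between the Vehicle libraries, and the fold was bounded between 0.940 and 1.07 (log2 0.0029, SE 0.05). SRXN1, the sulfiredoxin that repairs over-oxidised peroxiredoxins, was at 147.7 and 148.5 CPM in Vehicle and 143.1 and 148.5 CPM in Hx1R8, with a log2 fold change of -0.02 (SE 0.05). The remaining genes of this branch were as close, with TXN, the thioredoxin, at -0.05 (SE 0.05), PRDX6 at -0.0040 (SE 0.05) and CAT, the peroxisomal catalase, at -0.0092 (SE 0.06).

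The pentose phosphate enzymes and the malic enzyme all had estimates slightly below 0 and intervals that included no change. The pentose phosphate enzymes PGD, TKT and TALDO1 had log2 fold changes of -0.04 (SE 0.05), -0.04 (SE 0.05) and -0.01 (SE 0.05), and the malic enzyme ME1 was at -0.0095 (SE 0.05). PGD was at 379 and 416 CPM in Vehicle and 386 CPM in both Hx1R8 libraries, which lay between the Vehicle values. The same held for TALDO1, at 151.8 and 171.0 CPM in Vehicle and 158.2 and 162.2 CPM in Hx1R8. TKT and ME1 overlapped between the groups as well.

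Among quinone and carbonyl reductases, NQO1, the cytosolic quinone reductase and textbook NRF2 target (chromosome 16, 69709401 to 69726560), was at 410 and 405 CPM in Vehicle and at 413 and 400 CPM in Hx1R8. The Vehicle libraries lay inside the range of the Hx1R8 libraries, and the fold was bounded between 0.934 and 1.06 (log2 -0.0056, SE 0.05). CBR1, a carbonyl reductase of anthracyclines and quinones, averaged 44.8 ± 1.91 CPM over the Vehicle libraries and 44.4 ± 2.23 CPM over the Hx1R8 libraries (SD, n = 2 each). CBR3, its relative, had 32 and 43 counts in Vehicle and 38 and 49 in Hx1R8, and its fold interval was wide, from 0.758 to 1.47. Of the exon bases of CBR1 79.3% are its own, the rest being shared with LOC100133286, and of those of CBR3 89.98%, the rest being shared with CBR3-AS1.

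The aldo-keto reductases differed far more from one another than between the groups. AKR1C1, AKR1C2 and AKR1C3 reduce ketosteroids, prostaglandins and drug carbonyls, and they lie side by side on chromosome 10, at 4963415 to 4983282, 4987776 to 5018033 and 5048766 to 5107686. AKR1C1 was at 1243 and 1324 CPM in Vehicle and at 1259 and 1283 CPM in Hx1R8 (log2 -0.01, SE 0.05). AKR1C2 was at 754 and 773 CPM in Vehicle and at 782 and 771 CPM in Hx1R8 (log2 0.02, SE 0.05). AKR1C3 was at 386 and 373 CPM in Vehicle and at 381 and 374 CPM in Hx1R8 (log2 -0.0072, SE 0.05). In each of the 3 genes the groups overlapped, and the intervals of the fold lay between 0.928 and 1.08. Divided by exon length they were near one another, at 196 ± 8.76, 184 ± 3.30 and 195 ± 4.96 CPM per kb in Vehicle (SD, n = 2). That closeness depends on the listed exon lengths of 6542, 4155 and 1942 bases, while each coding sequence has 972 bases.

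The coding sequences of AKR1C1 and AKR1C2 are near-identical, so how reads were divided between them is uncertain. AKR1C3 is more distant but shares identical stretches with both. In GENCODE v29 coding sequences, AKR1C1 and AKR1C2 were 98% identical, differing at 19 of 972 positions, with a longest identical run of 189 bases. AKR1C1 and AKR1C3 were 91.5% identical and AKR1C2 and AKR1C3 91% identical. Of all stretches of 100 bases in the AKR1C1 coding sequence, 19.1% also occur unchanged in AKR1C2 and 2.18% in AKR1C3. Of those in the AKR1C2 coding sequence, 8.25% also occur in AKR1C3, with a longest identical run of 171 bases. Exon bases outside the coding sequences were not compared. The 60 coding bases in which AKR1C1 and AKR1C2 differ most, bases 103 to 162 counted from the first base of the start codon, show where reads can tell the copies apart, with capitals at the 15 positions at which the 3 genes are not all the same.
AKR1C1: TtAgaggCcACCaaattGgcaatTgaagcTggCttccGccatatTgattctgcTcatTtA
AKR1C2: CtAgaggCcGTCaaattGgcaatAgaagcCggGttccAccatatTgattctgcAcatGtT
AKR1C3: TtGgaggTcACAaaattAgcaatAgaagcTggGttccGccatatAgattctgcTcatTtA
AKR1C1 and AKR1C2 differ at 10 of these 60 bases. With the counts of the 3 genes summed to 1 row, the log2 fold change was -0.00080, also near 0.

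The division itself moved little between libraries. AKR1C1 took 52.2% (95% Wilson interval 51.7 to 52.6) and 53.6% (53.1 to 54.1) of the reads of the 3 genes in Vehicle replicates 1 and 2, and 52.0% (51.5 to 52.5) and 52.8% (52.4 to 53.3) in Hx1R8 replicates 1 and 2. AKR1C2 took 31.3% to 31.6% in Vehicle and 31.8% to 32.3% in Hx1R8. AKR1C3 took 15.1% to 16.2% in Vehicle and 15.4% to 15.7% in Hx1R8. For AKR1C1 and AKR1C3 the Hx1R8 shares overlapped the Vehicle range, and for AKR1C2 both were above it. The AKR1C2 Wilson intervals were 31.2 to 32.1 and 30.9 to 31.7 in Vehicle replicates 1 and 2, and 31.8 to 32.7 and 31.4 to 32.2 in Hx1R8. That of Vehicle replicate 1 overlapped both Hx1R8 intervals, and that of Vehicle replicate 2 only the interval of Hx1R8 replicate 2.

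AKR1B1, the aldose reductase of the polyol pathway, was at 109.5 and 120.8 CPM in Vehicle and at 117.7 and 113.2 CPM in Hx1R8, both between the Vehicle values (log2 0.0030, SE 0.05). AKR1B10, an aldo-keto reductase that often marks active NRF2 in lung tumours (chromosome 7, 134527567 to 134541412), was scarce. It had 40 and 47 counts in Vehicle and 26 and 51 in Hx1R8, or 2.29 and 2.72 CPM against 1.51 and 2.43 CPM. Hx1R8 replicate 1 was the lowest library and Hx1R8 replicate 2 lay inside the Vehicle range. Its log2 fold change of -0.31 (SE 0.24, unadjusted p = 0.206) was the lowest of the group, with a fold interval from 0.573 to 1.13, and it was -0.73 without Hx1R8 replicate 2 and -0.04 without Hx1R8 replicate 1.

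Levels in the wider family also ranged from abundant to 0. AKR1A1, an aldehyde reductase that is not among the 36 genes, was the most abundant at 274 CPM per kb in Vehicle, with a log2 fold change of -0.01 (SE 0.05). AKR1B15, the neighbour and close copy of AKR1B10, had 0 and 2 counts in Vehicle and 2 and 1 in Hx1R8, at or below a floor of 3 counts. The coding sequences of AKR1B10 and AKR1B15, of 951 and 1035 bases, were 85.3% identical with alignment gaps counted as differing. AKR1D1, a bile acid and steroid reductase, had 0 counts in all 4 libraries. AKR1C4, the liver-enriched copy of the AKR1C cluster, had 5 to 14 counts per library.

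**Figure D3:**
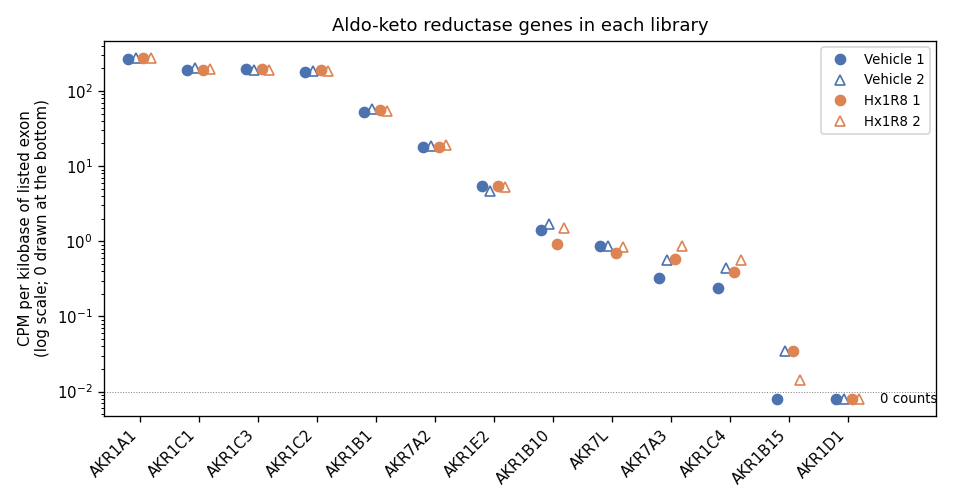
Level in each library of each aldo-keto reductase gene whose symbol begins with AKR, with pseudogenes left out. Levels are CPM per kilobase of listed exon on a log scale, with 0 counts drawn at the bottom. AKR1A1, AKR1C1, AKR1C3 and AKR1C2 lie together at the top, AKR1B1 below them, and AKR1B10 far lower at 1.55 CPM per kb in Vehicle, against 196 for AKR1C1.

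The conjugating and hydrolysing enzymes held the 3 tested genes whose groups did not overlap, all lower in Hx1R8. None of the 35 tested genes had both Hx1R8 libraries above both Vehicle libraries, and 3 had both below, where 14.7% and 15.2% of all tested genes did. CES1, a carboxylesterase that hydrolyses ester drugs (chromosome 16, 55802852 to 55833096), was at 16.7 and 17.8 CPM in Vehicle and at 13.01 and 15.1 CPM in Hx1R8. These were 292 and 307 counts in Vehicle and 224 and 317 in the Hx1R8 libraries, the second of which was sequenced more deeply. CES1 had the smallest unadjusted p of the group (0.0065 with edgeR). Its log2 fold change was -0.28 (SE 0.10), with a fold interval from 0.716 to 0.944. With DESeq2 CES1 had a log2 fold change of -0.29 and a wider SE of 0.16 (unadjusted p = 0.082). It did not pass over all genes (adjusted p = 0.9999 with edgeR, 0.188 to 0.99999 over its alternatives), and the estimate ranged from -0.40 to -0.19 with 1 library left out.

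UGDH, which makes the UDP-glucuronic acid used in glucuronidation (chromosome 4, 39498755 to 39527439), was at 49.5 and 48.3 CPM in Vehicle and at 45.1 and 44.6 CPM in Hx1R8. The libraries of each group lay close together, and the log2 fold change was -0.12 (SE 0.06, unadjusted p = 0.057, adjusted p = 0.9999 with edgeR). It stayed between -0.14 and -0.11 with 1 library left out. MGST1, a membrane-bound glutathione transferase, differed by less, at 78.1 and 75.51 CPM in Vehicle and 74.8 and 75.50 CPM in Hx1R8 (log2 -0.03, SE 0.06).

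**Figure D4:**
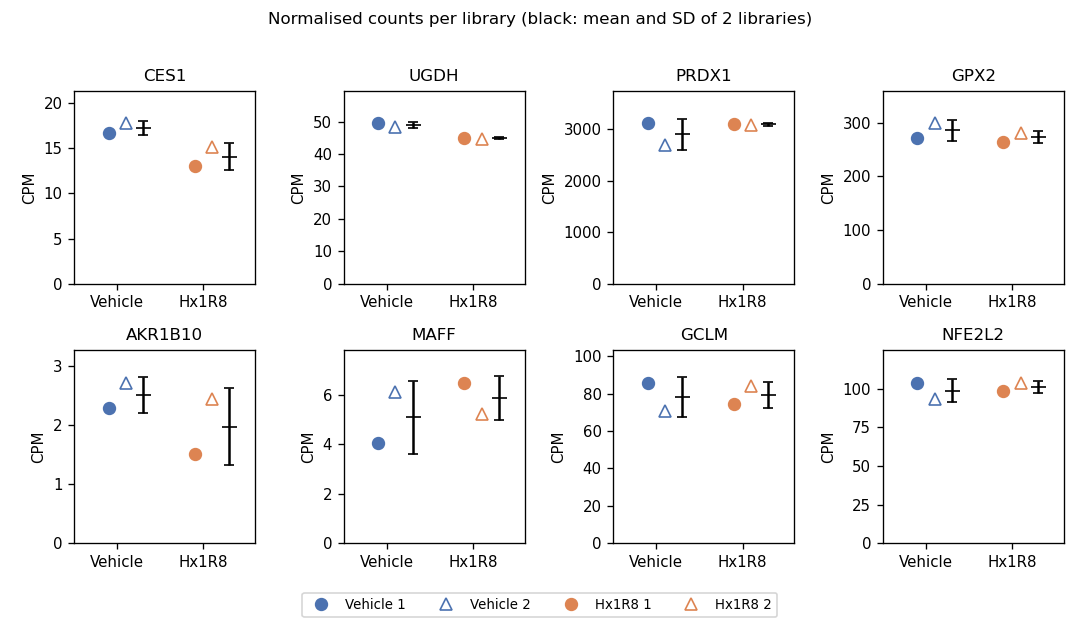
CPM in each library, with mean and SD (n = 2) in black and axes from 0, for the 6 genes of smallest unadjusted p (CES1, UGDH, PRDX1, GPX2, AKR1B10, MAFF) and for GCLM and NFE2L2. The Hx1R8 libraries lie below both Vehicle libraries for CES1 and UGDH only, and in PRDX1 Vehicle replicate 2 is apart from the other 3.

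In GSTP1, GSTA4, GSTM3 and EPHX1 the groups overlapped. GSTP1, the main cytosolic glutathione transferase of the lung epithelium, averaged 492 ± 18.4 CPM over the Vehicle libraries and 477 ± 3.64 CPM over the Hx1R8 libraries (SD, n = 2 each; log2 -0.04, SE 0.05). GSTA4, a transferase for lipid aldehydes, and GSTM3 were at 12.2 and 18.9 CPM in Vehicle, with log2 fold changes of 0.03 (SE 0.11) and -0.05 (SE 0.09). EPHX1, the microsomal epoxide hydrolase, was at -0.05 (SE 0.05). UGT1A6, a glucuronosyltransferase, had 6 and 8 counts in Vehicle and 3 and 4 in Hx1R8 and was left out of the test by the filter on low counts. Both Hx1R8 libraries were below both Vehicle libraries, but their counts were near the floor of 3, and only 43.2% of its exon bases are outside the exons of other UGT1A genes.

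**Figure D5:**
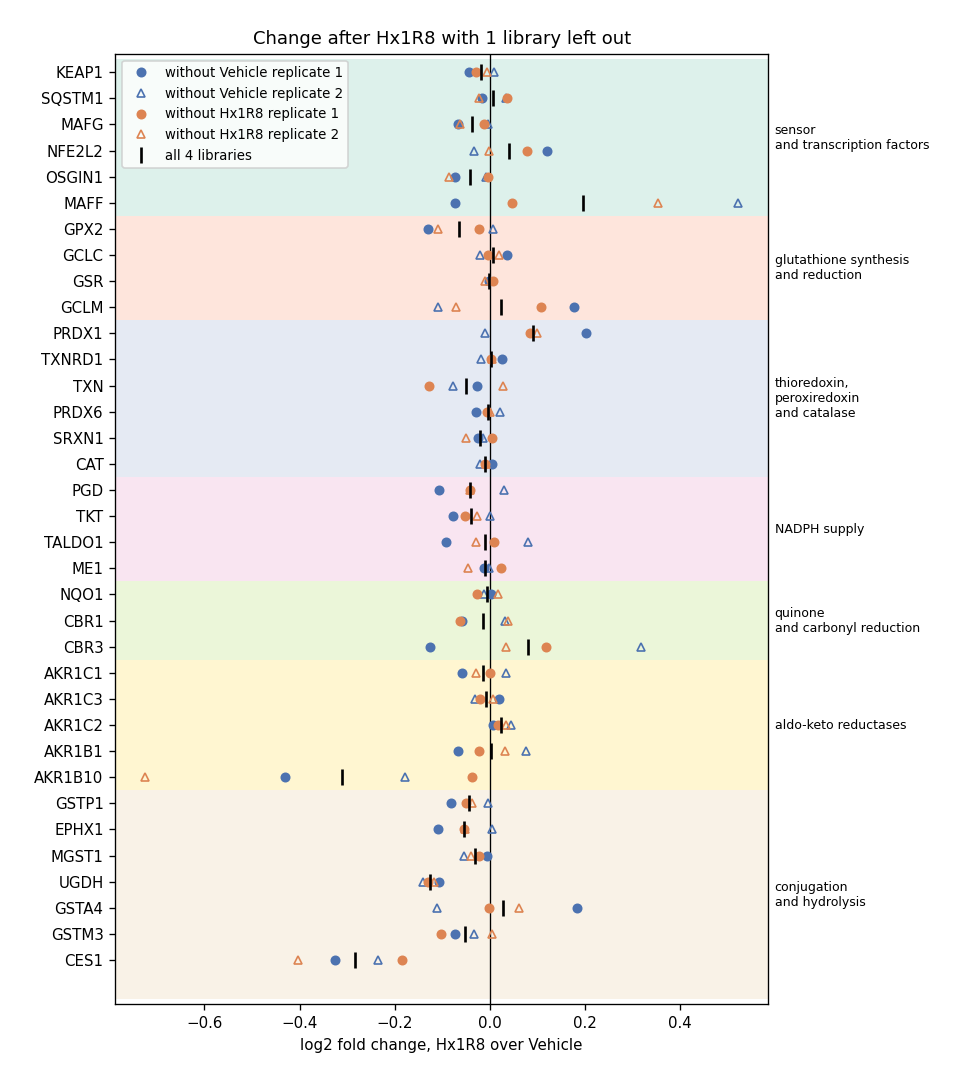
Log2 fold change of the 35 tested genes with each library left out in turn (blue: a Vehicle library, orange: an Hx1R8 library) and with all 4 libraries (black bar), grouped by role. The estimates of CES1, UGDH, MGST1, GSTP1, MAFG, OSGIN1 and AKR1B10 stay below 0 and that of AKR1C2 above 0 throughout, and for the other 27 genes the sign depends on the library left out.

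Further genes of the pathway and of related families were counted in 5 other lists. Of 15 tested NRF2 regulators and partners 0 passed over all genes, 14 had fold intervals within 1.2-fold of no change, and BACH1, the repressor that competes with NRF2 for its elements, was at 0.10 (SE 0.07). PALB2, which binds KEAP1, and RBX1, the ring subunit of the CUL3 ligase, were at 0.11 (SE 0.07) and -0.10 (SE 0.08). The list's median was 0.01.

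Of 24 tested further NRF2 targets 0 passed and their median was -0.0033. HMOX1, the haem oxygenase that answers strongly to oxidants, was low at 8.80 and 10.2 CPM in Vehicle and 8.19 and 9.35 CPM in Hx1R8 (log2 -0.11, SE 0.12). Each group held a value inside the other's range. SLC7A11, the cystine transporter subunit, was at 93.8 and 86.9 CPM in Vehicle and 85.9 and 93.3 CPM in Hx1R8 (log2 -0.01, SE 0.06), and its groups overlapped as well. ABCC2, an efflux transporter, and FTL, the ferritin light chain, were at -0.07 (SE 0.05) and -0.07 (SE 0.05), and PIR at 0.25 (SE 0.12, unadjusted p = 0.044), with 48.0% of its exon bases its own.

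Of 12 tested further aldo-keto and carbonyl reductases 0 passed, with a median of 0.01 and a widest value of 0.70 (SE 0.43) for the scarce AKR7A3. Of the potassium channel beta subunits of this family, KCNAB1 was at 0.33 (SE 0.16, unadjusted p = 0.041) and KCNAB3 at 0.29 (SE 0.18). Of 18 further glutathione transferases 9 were tested and 0 passed, with a median of 0.0045, GSTO1 at 0.10 (SE 0.07), MGST2 at -0.19 (SE 0.16) and GSTO2 at -0.37 (SE 0.33).

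Of 26 tested further thiol and peroxide enzymes 0 passed, with a median of -0.02. GLRX5, a mitochondrial glutaredoxin of iron-sulfur cluster assembly, had the smallest unadjusted p of all these lists. It was at 72.1 and 76.3 CPM in Vehicle and at 87.6 and 83.8 CPM in Hx1R8, both above the Vehicle libraries (log2 0.21, SE 0.06, adjusted p = 0.821 with edgeR). It passed without Vehicle replicate 2 (log2 0.25, adjusted p = 0.0062) and under no other alternative (0.0062 to 0.99999 over all of them). MSRA, a methionine sulfoxide reductase, and GPX4, the lipid peroxide reductase that guards against ferroptosis, were at -0.29 (SE 0.13, unadjusted p = 0.038) and -0.09 (SE 0.05, unadjusted p = 0.068). In both genes the Hx1R8 libraries lay below the Vehicle libraries.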

How the data were processed

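RNA was taken with TRIzol and 1.5 µg went into each library (an ABclonal Fast RNA-seq kit), per the labels' protocols. The authors deposited raw counts per gene for 4 libraries, aligned with STAR 2.7.9 to hg38 per the submitters' processing notes; no source used here names the counting tool, annotation or strand setting. Exon lengths and coordinates are as listed per the file headers. A broken row of 2 lines, with 0 reads, was left out.

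Counts were tested with edgeR 4.0.16 (R 4.3.3; quasi-likelihood, TMM factors, filterByExpr, group only, two-sided) with Benjamini-Hochberg adjustment over all 14482 tested genes at 0.05; SE and 95% intervals come from that fit. CPM is TMM-scaled. A floor of 3 counts was 0.143 to 0.174 CPM. Alternatives were library totals alone, median-ratio factors, a filter of 1 CPM in 2 libraries, no filter, DESeq2 1.42.0, limma-voom (limma 3.58.1), a replicate block, each library left out and the AKR1C1, AKR1C2 and AKR1C3 counts summed.

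The members, lists and tests were chosen with earlier results of these data known. All 36 genes were to be named, with full values for NFE2L2, KEAP1, NQO1, GCLM, GCLC, TXNRD1, SRXN1, the aldo-keto reductases, any called gene and the 6 of smallest unadjusted p. Of each other list the 3 of smallest unadjusted p were named, with HMOX1, SLC7A11, FTL, AKR1A1 and AKR1B15, and 1 further gene of the rule is not reported here; PGD, TALDO1, MGST1, AKR1D1, AKR1C4 and UGT1A6 were given values after these were seen.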

Additional observations from a re-analysis of the deposited data

How the results depend on the processing

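Under the 7 alternatives that kept all libraries, 0 of the listed genes that were tested were called higher and 0 lower. UGT1A6 was tested only without the filter and with DESeq2. With each library left out in turn, where the remaining sample of its group was taken to vary as the other group does, there were 0 to 1 gene higher (PRDX1, without Vehicle replicate 1) and 0 to 0 lower, and over all genes 2 to 41 higher and 1 to 38 lower. DESeq2 called 1 gene higher over all genes, and the cause was not tested. With the replicate block 0 of the 35 tested genes were called higher and 0 lower, and 2 and 1 over all genes. No label ties samples beyond a shared number, and deviations of same-numbered samples correlated at 0.03. Intervals within 1.2-fold, counted without each library after seeing the data, numbered 26 to 29 of the genes, and genes at an unadjusted p under 0.05 numbered 0 to 11, the most without Vehicle replicate 1. With all libraries kept, signs turned, with no call, for GSR (0.0022 without the filter, 0.00015 with DESeq2), PRDX6 (0.00026 without the filter) and AKR1C2 (-0.00080 when summed). With 1 library left out, signs turned for 27 of the 35 tested genes, whose log2 fold changes ranged as follows, with PRDX1 the only call and the cause not tested: AKR1B1 -0.067 to 0.077, AKR1C1 -0.059 to 0.034, AKR1C3 -0.031 to 0.019, CAT -0.021 to 0.0043, CBR1 -0.062 to 0.039, CBR3 -0.13 to 0.32, EPHX1 -0.11 to 0.0036, GCLC -0.020 to 0.036, GCLM -0.11 to 0.18, GPX2 -0.13 to 0.0073, GSR -0.010 to 0.0069, GSTA4 -0.11 to 0.18, GSTM3 -0.10 to 0.0038, KEAP1 -0.044 to 0.0079, MAFF -0.074 to 0.52, ME1 -0.046 to 0.024, NFE2L2 -0.033 to 0.12, NQO1 -0.026 to 0.016, PGD -0.11 to 0.029, PRDX1 -0.0094 to 0.20, PRDX6 -0.028 to 0.022, SQSTM1 -0.022 to 0.036, SRXN1 -0.050 to 0.0055, TALDO1 -0.093 to 0.080, TKT -0.078 to 0.00025, TXN -0.13 to 0.027 and TXNRD1 -0.018 to 0.026. The same held for AKR1A1 (-0.032 to 0.010), GSTO2 (-0.79 to 0.015), HMOX1 (-0.22 to 0.0052), RBX1 (-0.21 to 0.026) and SLC7A11 (-0.074 to 0.047). The edgeR fold intervals of MAFF, CBR3, AKR1B10 and CES1, with 26 to 317 counts per library, reached beyond 1.2-fold. UGT1A6, with 3 to 8 counts, was not tested in the main fit. Its log2 fold change was -1.10 without the filter (fold interval 0.163 to 1.33) and -1.14 with DESeq2 (SE 1.16), with no call.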
